A study of Mus musculus with 12 samples.

Results

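The cytosolic and microsomal enzymes that conjugate small molecules with glucuronic acid, sulfate or glutathione were examined in livers and bone marrow-derived macrophages (BMDM) of mice with a myeloid deletion of the thyrotropin receptor gene Tshr. The members were every gene of the count table whose symbol names a UDP-glucuronosyltransferase of the Ugt1, Ugt2 or Ugt3 groups, a sulfotransferase (Sult) or a soluble glutathione S-transferase of the alpha, kappa, mu, omega, pi, theta or zeta class (Gst). Names of pseudogenes were left out. The choice used gene symbols only and gave 64 of 55335 genes, of which 21 were UGT, 21 were SULT and 22 were GST genes.

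Conjugation is the phase of metabolism in which a lipophilic compound, often already oxidised by a cytochrome P450, receives a polar group and can leave the cell in bile or urine. UGT enzymes sit in the endoplasmic reticulum and take the sugar from UDP-glucuronic acid, SULT enzymes take sulfate from PAPS, and GST enzymes join glutathione to electrophiles. Bilirubin, bile acids, steroids, thyroid hormones and drugs are among the substrates. The liver is the main organ of all these reactions, and several GST and some UGT1A genes are also used by other cells.

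All mice were male C57BL/6N. Controls carried the floxed allele without Cre (Tshr f/f), and Tshr MKO mice carried it together with Lyz2-Cre, which is active in macrophages, other monocyte-derived cells and neutrophils but not designed to act in hepatocytes. Macrophages were grown from marrow of mice given in the labels as 6 weeks old for 7 days with 10 ng/mL M-CSF and then received 1 ng/mL TSH for 24 h, so every BMDM library, control or MKO, was TSH-treated. Livers came from mice given a high-fat diet (HFD) for 9 weeks from 6 weeks of age, fasted for 8 h and injected with 1.5 U/kg insulin 5 min before collection, again in both genotypes. Each of the 4 groups held 3 strand-specific RNA-seq libraries, 12 in all.

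The libraries held 28962878 to 40954211 counts. Values are CPM, a gene's counts relative to the library total after scaling by TMM factors within a tissue. These factors were 0.891 to 1.05 in liver and 0.993 to 1.11 in BMDM, except f/f BMDM replicate 3 at 0.738. Tshr could not be used to check the genotypes, since its counts were 0 in all 6 livers, 0, 0 and 2 in f/f BMDM and 0, 0 and 5 in MKO BMDM. For the livers, the study's own supplementary listing of the libraries places them under the opposite genotype heading from the labels, and Tshr, at 0 in every liver, cannot decide between them. Every liver direction below follows the labels and would turn round under the other assignment. Hepatocyte markers summed to 81540 to 100911 CPM in f/f and 95071 to 95906 CPM in MKO livers, and in BMDM 6 of the 8 markers (Alb, Ttr, Cps1, Serpina1a, Fgb and Hnf4a) were at 0. Macrophage markers summed to 14777 to 16288 CPM in f/f and 20032 to 29334 CPM in MKO BMDM, where 1 of the 7 (Lyz2) was higher at an unadjusted p under 0.05. Lyz2 made the largest part of these sums, with 8871, 9843 and 8773 CPM in f/f and 16149, 14537 and 22320 CPM in MKO BMDM. It is also the gene whose promoter drives Cre in the MKO mice, so it is no neutral marker between the genotypes. Whether the Cre allele alters its counts was not tested. Of the 7, 4 had a log2 fold change above 0, while Adgre1 (-0.30), Itgam (-0.51) and Mertk (-0.36) were below 0.

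The members lie mostly in tandem clusters, which matters for how reads can be assigned to them. On the mouse build mm10, equal to GRCm38, the 9 Ugt1a genes span chr1:88055388-88220002 on the plus strand, where each has its own promoter and start exon and all share the downstream exons. The 7 Gstm genes lie in chr3:107895821-108044894, the 7 Ugt2b genes in chr5:86889767-87424203, the 4 Gstt genes in chr10:75774115-75837424 and the 3 Gstp genes in chr19:4035407-4059569. For 18 of the 64 members more than 20% of the 100-base windows of the transcripts were also found in another gene. These shares were 35.1% to 71.5% for the Ugt1a genes, 52.8% for Gstp1, 63.5% for Gstp2 and 81.8% for Gsta1. Values of these members are uncertain, since the counting could have split shared reads between copies.

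Promoters are shown for 7 members, 250 bases before the annotated start, because the Ugt1a genes differed in where they were used although their 3′ parts are shared, and because Ugt2a3, Sult5a1 and Gsta3 are described at length below. The sequences are those of RefSeq on GRCm38.p6, which had an entry for 56 of the members and none for Gsta4, Gstt2 or Ugt1a6b. Ugt1a1 lies at chr1:88211709-88211958 (plus strand), Ugt1a9 at chr1:88070529-88070778 (plus strand), Ugt1a6a at chr1:88134559-88134808 (plus strand), Ugt1a7c at chr1:88094751-88095000 (plus strand), Ugt2a3 at chr5:87337196-87337445 (minus strand), Sult5a1 at chr8:123158281-123158530 (minus strand) and Gsta3 at chr1:21240335-21240584 (plus strand). Each is written 5′ to 3′ along the gene, and capitals mark GTTAAT or its reverse complement, the core of the site for the hepatocyte factor HNF1, and TGACNNNGC, the core of the antioxidant response element bound by NRF2.
Ugt1a1: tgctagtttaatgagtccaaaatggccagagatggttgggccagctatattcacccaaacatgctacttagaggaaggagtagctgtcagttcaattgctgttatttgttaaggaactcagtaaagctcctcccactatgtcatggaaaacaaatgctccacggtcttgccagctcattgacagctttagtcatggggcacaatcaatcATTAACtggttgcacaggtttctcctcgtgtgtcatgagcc
Ugt1a9: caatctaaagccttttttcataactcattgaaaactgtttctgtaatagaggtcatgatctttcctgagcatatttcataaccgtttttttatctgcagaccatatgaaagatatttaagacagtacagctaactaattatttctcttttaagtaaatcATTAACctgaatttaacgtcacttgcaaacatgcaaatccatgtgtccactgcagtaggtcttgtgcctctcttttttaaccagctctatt
Ugt1a6a: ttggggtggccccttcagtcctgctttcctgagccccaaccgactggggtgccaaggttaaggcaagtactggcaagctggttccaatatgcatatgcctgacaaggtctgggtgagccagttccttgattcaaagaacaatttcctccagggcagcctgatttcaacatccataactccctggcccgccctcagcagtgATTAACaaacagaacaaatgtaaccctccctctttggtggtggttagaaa
Ugt1a7c: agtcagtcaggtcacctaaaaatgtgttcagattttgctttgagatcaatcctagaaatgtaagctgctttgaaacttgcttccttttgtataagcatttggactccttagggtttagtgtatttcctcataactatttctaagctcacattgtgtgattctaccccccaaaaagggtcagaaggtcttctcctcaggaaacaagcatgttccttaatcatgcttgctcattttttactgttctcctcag
Ugt2a3: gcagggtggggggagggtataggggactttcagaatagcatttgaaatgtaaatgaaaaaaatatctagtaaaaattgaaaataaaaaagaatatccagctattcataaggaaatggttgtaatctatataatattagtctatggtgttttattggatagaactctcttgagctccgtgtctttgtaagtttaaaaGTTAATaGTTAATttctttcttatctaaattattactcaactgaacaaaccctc
Sult5a1: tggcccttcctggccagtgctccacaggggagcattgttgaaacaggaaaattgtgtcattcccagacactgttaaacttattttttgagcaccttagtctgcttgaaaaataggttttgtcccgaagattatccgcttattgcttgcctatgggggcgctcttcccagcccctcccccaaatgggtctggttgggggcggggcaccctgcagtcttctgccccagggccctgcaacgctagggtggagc
Gsta3: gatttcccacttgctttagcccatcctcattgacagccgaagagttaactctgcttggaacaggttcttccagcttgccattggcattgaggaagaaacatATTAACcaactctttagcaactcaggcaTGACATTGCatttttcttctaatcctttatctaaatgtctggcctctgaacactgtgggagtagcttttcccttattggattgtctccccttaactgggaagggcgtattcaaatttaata
Ugt1a1, Ugt1a9 and Ugt1a6a each held 1 match to GTTAAT, Ugt2a3 held 2 and Gsta3 held 1 beside its antioxidant element, while Ugt1a7c and Sult5a1 held neither motif. Over all members GTTAAT was present on either strand in 14 of 67 promoters (20.9%), 6 of 19 for UGT, 7 of 20 for SULT and 1 of 28 for GST genes, and it was present in 6.4% of the 32851 promoters of the genome. TGACNNNGC was found in 3 member promoters (4.5%), all of GST genes, and in 10.2% of all promoters. GCGTG, the core of the xenobiotic response element bound by the aryl hydrocarbon receptor, was found in 11 (16.4%) and in 28.2%. Matches of TGACNNNGC and GCGTG can overlap, as in the promoter of Gstm5, and a match is a description of the sequence only.

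The liver and the macrophages used different members. In all 6 livers 11 of the 64 members were without a count, and 32 were without a count in all 6 BMDM libraries, among them 12 UGT, 17 SULT and 3 GST genes. In none of the 12 libraries was a count found for 10 members (8 SULT and 2 UGT), while 22 were counted in liver only and 1, Gstt4, in BMDM only. A count of 0 allows up to 3 counts, 0.0733 to 0.104 CPM in these libraries. All members together made up 0.58% to 0.80% of liver counts and 0.0188% to 0.0551% of BMDM counts. The 7 Ugt2b genes, both Ugt3a genes and Sult2a8, several of which were among the abundant liver members, had no count in any BMDM library.

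**Figure D1:**
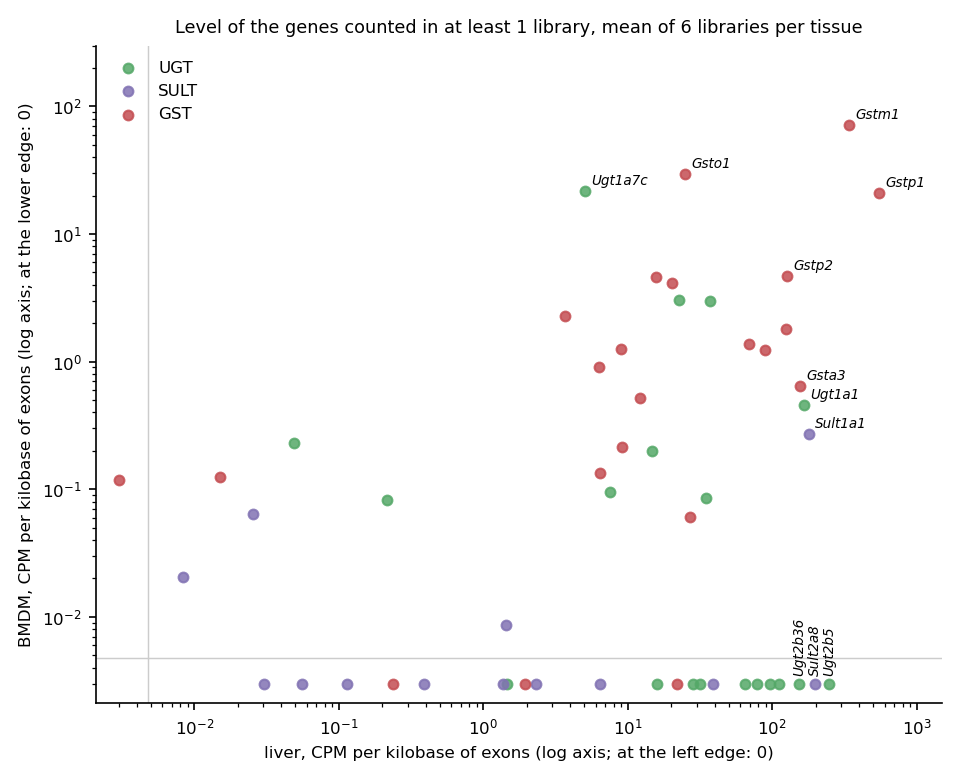
Level of each member in liver (x axis) and in BMDM (y axis), both on log axes in CPM per kilobase of exon averaged over the 6 libraries of a tissue, coloured by family, with members at 0 drawn at the edges. Gstm1 was at 340 CPM per kb in liver and 71.3 in BMDM, Ugt1a7c was higher in BMDM (21.7) than in liver (5.06), and the Ugt2b genes lie on the lower edge, where BMDM had no counts.

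Compared per length, the members with the highest liver level were Gstp1, a pi-class enzyme, with 553 ± 165 CPM per kb (SD over the 6 libraries), Gstm1, a mu-class enzyme, with 340 ± 61.2, and Ugt2b5 with 248 ± 30.3. They were followed by Sult2a8, a bile acid sulfotransferase, with 197 ± 31.1 CPM per kb, Sult1a1, the phenol sulfotransferase, with 179 ± 32.3, and Ugt1a1, the bilirubin-conjugating enzyme, with 165 ± 28.4. The libraries of Gstp1 spanned 306 to 753 CPM per kb, a range that overlapped that of Gstm1 (282 to 440), and the ranges of Sult2a8, Sult1a1 and Ugt1a1 overlapped one another. Within the families, Sult2a8 and Sult1a1 made 62.0% and 25.9% of the summed SULT level in CPM, while the UGT level was spread over more genes, led by Ugt2b5 with 16.7% and Ugt1a1 with 13.3%. Of the GST level, Gstp1 made 25.5%, Gsta3 20.2%, Gstz1 19.0% and Gstm1 14.9%. Gstz1 is the maleylacetoacetate isomerase of tyrosine breakdown.

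In BMDM the order began with Gstm1 at 71.3 ± 18.1 CPM per kb, Gsto1, an omega-class enzyme that reduces dehydroascorbate, at 29.5 ± 6.55, Ugt1a7c at 21.7 ± 5.24 and Gstp1 at 20.8 ± 8.84. The lowest Gstm1 library (45.2 CPM per kb) was above the highest Gsto1 library (41.7), while the ranges of Gsto1, Ugt1a7c and Gstp1 overlapped. Ugt1a7c made 80.1% of the summed UGT level and Ugt1a6a 11.5%, whereas Ugt1a1 was at 0.0753 to 3.84 CPM. The SULT level was near the floor throughout, with Sult1a1 at 0.270 and Sult4a1, best known from brain, at 0.0640 CPM per kb. Gsto1 had a similar level per length in liver, 24.9 CPM per kb.

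The liver comparison asked which members differed when Tshr was missing from myeloid cells of HFD-fed mice. None of the 45 members tested (18 UGT, 8 SULT and 19 GST) passed an adjusted p of 0.05 in edgeR's quasi-likelihood test, and the same held for 0% of the 15062 genes tested. The lowest adjusted p of a member was 0.334 and that of any gene 0.0634. At an unadjusted p under 0.05, 8 members were higher in MKO liver (17.8%; 5.27% of all genes) and 0 were lower (5.18% of all genes). Those 8 were Sult5a1, Ugt1a9, Sult2a8, Ugt2a3, Ugt2b1, Gsta4, Gstk1 and Gsto1. DESeq2 called 1 member, Sult5a1, at an adjusted p under 0.05 (269 of 15053 genes in all). The MARS model on summed counts, which ignores the spread between libraries, called 2, Sult5a1 and Gsta2 (514 of 15062 genes in all). The log2 fold change was above 0 for 36 of the 45 members (80%), against 49.1% of all genes, with a median of 0.23 for the members, 0.17 for UGT, 0.29 for SULT and 0.25 for GST genes, and -0.01 for all genes. In 7 members every MKO library was above every f/f library (15.6%; 9.6% of all genes) and in 0 every one was below (7.74% of all genes). In bulk tissue, fewer cells of a type and less RNA per cell cannot be told apart.

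**Figure D2:**
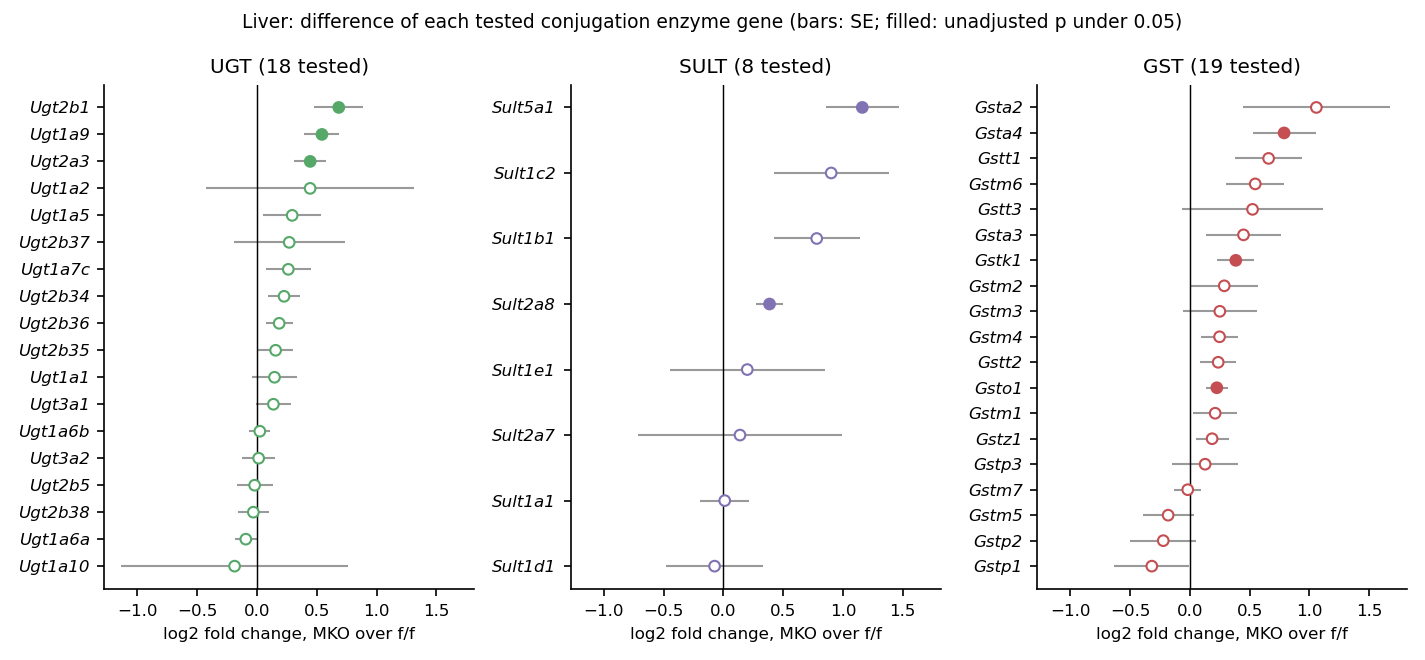
Log2 fold change (MKO against f/f, n = 3 libraries each) of the 45 members tested in liver, on the x axis with bars of 1 SE, 1 panel per family, with filled points for an unadjusted p under 0.05. The values run from -0.32 for Gstp1 to 1.16 for Sult5a1, and 36 of 45 points lie above 0.

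Among the glucuronosyltransferases, Ugt1a9, a phenol-conjugating UGT1A enzyme, had 23.6, 26.9 and 28.8 CPM in f/f and 40.96, 43.3 and 31.3 CPM in MKO livers. All 3 MKO livers were above all 3 f/f livers, with replicate 3 of each genotype close to the other (log2 fold change 0.54, SE 0.15, unadjusted p = 0.0074, edgeR adjusted p = 0.334). Ugt2a3 was at 99.2, 139 and 112 CPM in f/f and at 159, 157 and 159.9 CPM in MKO livers, without overlap (log2 fold change 0.44, SE 0.13, unadjusted p = 0.0120, edgeR adjusted p = 0.349). Its 3 MKO livers lay within 3 CPM of each other, and the f/f livers were spread more widely. Ugt2b1 was at 169, 297 and 199.7 CPM in f/f and 361, 355 and 353 CPM in MKO livers (log2 fold change 0.68, SE 0.20, unadjusted p = 0.0124, edgeR adjusted p = 0.353). The groups did not overlap, and f/f replicate 2 was the control nearest to the MKO values. The most abundant genes of the family per length, Ugt2b5 and Ugt1a1, differed by less than the spread between libraries. Ugt2b5 was at 440.3, 406 and 545 CPM in f/f and 421, 435 and 516 CPM in MKO livers, which overlapped (log2 fold change -0.02, SE 0.15), and it took either sign under other scalings. Ugt1a1 was at 319, 397 and 329 CPM in f/f and 413, 291 and 453 CPM in MKO livers, the MKO libraries including both the lowest and the highest value (log2 fold change 0.15, SE 0.19). Ugt1a6b, another UGT1A enzyme for planar phenols, lay between 83.2 and 93.4 CPM in all 6 livers. The summed level of the 7 Ugt2b genes was 1415 ± 77.4 CPM in f/f and 1647 ± 115 CPM in MKO livers (SD, n = 3), every MKO liver being above every f/f liver, while the sums over all UGT genes, 2579 ± 105 and 2933 ± 249 CPM, overlapped.

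Among the sulfotransferases, Sult5a1, whose substrates are little known, had 2.57, 5.05 and 4.15 CPM in f/f and 7.46, 7.33 and 11.6 CPM in MKO livers. Every MKO liver was above every f/f liver, and MKO replicate 3 was the highest (log2 fold change 1.16, SE 0.31, unadjusted p = 0.0066, edgeR adjusted p = 0.334). Its DESeq2 adjusted p was 0.0374, and its adjusted p ranged from 1.5e-39, in the MARS model, to 0.697 over the alternatives. Sult2a8 was at 514, 589 and 579 CPM in f/f and 756, 678 and 762 CPM in MKO livers (log2 fold change 0.39, SE 0.11, unadjusted p = 0.0117, edgeR adjusted p = 0.349). These groups did not overlap either, and this is the gene that carries most of the SULT signal of the liver. Sult1a1 showed no such pattern, with 288, 320.3 and 200.03 CPM in f/f and 309, 221 and 285 CPM in MKO livers (log2 fold change 0.01, SE 0.21). The summed SULT level was 950.2 ± 131 CPM in f/f and 1136 ± 125 CPM in MKO livers (SD, n = 3), with overlap.

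Among the glutathione S-transferases, Gsta4, which acts on the lipid peroxidation product 4-hydroxynonenal, had 9.31, 15.7 and 8.92 CPM in f/f and 24.5, 16.2 and 18.1 CPM in MKO livers. The groups were separated only narrowly, by f/f replicate 2 and MKO replicate 2 (log2 fold change 0.79, SE 0.26, unadjusted p = 0.0210, edgeR adjusted p = 0.403). Gstk1, a kappa-class enzyme of mitochondria and peroxisomes, was at 96.6, 80.6 and 88.3 CPM in f/f and 128, 90.5 and 128 CPM in MKO livers, with 1 MKO library inside the f/f range (log2 fold change 0.38, SE 0.16, unadjusted p = 0.0423, edgeR adjusted p = 0.460). Gsto1 was at 42.5, 48.6 and 48.1 CPM in f/f and 57.5, 51.6 and 53.7 CPM in MKO livers, without overlap but with the smallest difference of the 8 (log2 fold change 0.23, SE 0.09, unadjusted p = 0.0456, edgeR adjusted p = 0.468). The low-level Gsta2 was at 1.42, 2.62 and 0.365 CPM in f/f and 3.63, 2.36 and 3.26 CPM in MKO livers, which overlapped (log2 fold change 1.06, SE 0.62). The pi-class genes Gstp1 and Gstp2 had the lowest fold changes of the members tested. Gstp1 was at 997.5, 688 and 1165 CPM in f/f and 474, 1035 and 779 CPM in MKO livers, so that the lowest value was in MKO replicate 1 and the groups overlapped (log2 fold change -0.32, SE 0.31, unadjusted p = 0.345). Gstp2, which shares sequence with Gstp1, was at 175, 110.0 and 171 CPM in f/f and 88.0, 170.1 and 132.9 CPM in MKO livers (log2 fold change -0.22, SE 0.28). Gstm1 was at 415, 558 and 418 CPM in f/f and 648, 461 and 503 CPM in MKO livers, with overlap (log2 fold change 0.21, SE 0.18). The summed GST level was 3199 ± 150.2 CPM in f/f and 3505 ± 109 CPM in MKO livers (SD, n = 3), every MKO liver being above every f/f liver.

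**Figure D3:**
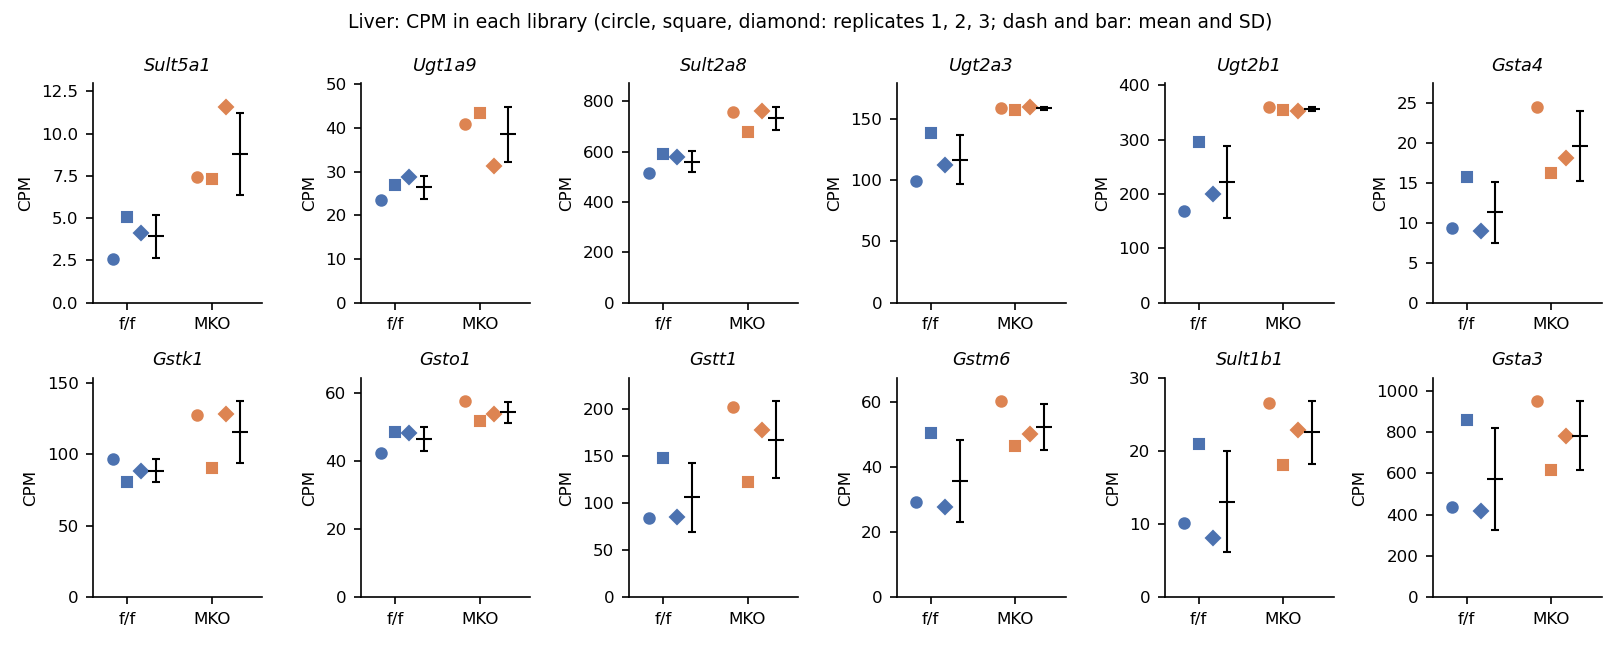
CPM of 12 members in each of the 6 livers, 1 panel per gene with its own axis from 0; circles, squares and diamonds are replicates 1, 2 and 3, and the dash with its bar is the mean and SD of the 3 libraries. MKO livers lie above all f/f livers for Sult5a1, Ugt1a9, Sult2a8, Ugt2a3, Ugt2b1, Gsta4 and Gsto1, and for Gstt1, Gstm6, Sult1b1 and Gsta3 the square of f/f replicate 2 lies apart from the other controls.

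A single control liver, f/f replicate 2, lay apart from the other controls for many members. It was the highest of the 3 f/f livers for 25 of the 45 members, while MKO replicate 1 was the highest of all 6 for 23 and f/f replicate 3 the lowest of all for 18. These ranks were not counted over all genes, so they are not shown to be particular to the members. The 4 members with this pattern given here were picked after their values were seen. Gsta3, an alpha-class enzyme, was at 439, 861 and 421 CPM in f/f and 949.5, 616 and 783 CPM in MKO livers (log2 fold change 0.45, SE 0.31, unadjusted p = 0.195). Gstt1, of the theta class, was at 84.5, 148 and 85.6 CPM against 202, 122.7 and 177 CPM (log2 fold change 0.66, unadjusted p = 0.0507). The mu-class Gstm6 was at 29.2, 50.3 and 27.6 CPM against 60.1, 46.5 and 50.1 CPM, and Sult1b1, which sulfates thyroid hormones, at 10.2, 20.9 and 8.13 CPM against 26.6, 18.1 and 22.9 CPM. In each of these 4 members, replicate 2 was the highest of the f/f and the lowest of the MKO livers. Without f/f replicate 2, the members at an unadjusted p under 0.05 numbered 14, all higher in MKO (31.1%; 6.35% of all genes were higher in that fit). Without f/f replicate 3 or MKO replicate 1 they numbered 5 (11.1%; 3.41% and 3.56% of all genes). Sult5a1, Ugt1a9, Sult2a8 and Ugt2a3 were past this limit whichever of the 6 livers was left out, Ugt2b1 in 5 of 6, Gsta4 in 3, Gstk1 in 2 and Gsto1 in 1. The liver sample IDs start with A or B, unevenly over the genotypes, and what the letter marks is not given. With this letter as a covariate, 9 of 45 members were higher (784 of 15062 genes) and 0 lower (667 genes) at an unadjusted p under 0.05 in edgeR. Gstk1 and Gsto1 were then not among them, while Gsta2, Gstt1 and Sult1b1 were.

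Genes that supply these reactions, or act beside them, were counted in the same way. In liver, 2 of 18 tested genes of glutathione synthesis and recycling (Gsr and Anpep) were lower and 0 higher at an unadjusted p under 0.05, with a median log2 fold change of -0.10. Of 8 genes that supply UDP-glucuronic acid, 1 was higher, Ugp2, which makes UDP-glucose, with 133.3, 190.2 and 134 CPM in f/f and 269, 226 and 219 CPM in MKO livers (log2 fold change 0.64). Of 17 genes of sulfate and PAPS supply, Mpst and Ethe1 were higher and Csad lower. Among other conjugation enzymes, Gamt was higher and As3mt and Clic4 were lower. The 17 carriers of conjugates held 1 higher gene, Slc22a7, a basolateral organic anion transporter, at 12.4, 15.4 and 14.1 CPM in f/f and 21.8, 26.9 and 41.1 CPM in MKO livers (log2 fold change 1.10). No gene of these lists passed an adjusted p of 0.05.

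Of 29 receptors and factors that control such genes, 1 was higher and 4 (Bach1, Foxa2, Rora and Por) were lower at an unadjusted p under 0.05. The higher gene was Nr1i3, which encodes the xenobiotic receptor CAR, with 212, 250.3 and 204 CPM in f/f and 325, 422 and 283 CPM in MKO livers, without overlap (log2 fold change 0.63). Of 25 NRF2 target genes outside the members, 1 was higher (Txn1) and 2 were lower (Srxn1 and Gsr), with a median log2 fold change of -0.06. Many UGT, SULT and GST genes differ between the sexes or along the liver lobule, so lists of such genes outside the members were also counted. Of 15 male-biased genes, Cyp4a12a, Cyp4a12b and Hsd3b5 were higher and Elovl3 and C6 lower, and of 9 female-biased genes 1 was higher (Prlr). Of 16 pericentral genes 1 was lower (Axin2), and of 16 periportal genes 1 was lower (Sdsl). Neutrophil markers summed to 6.57 to 68.8 CPM in f/f and 8.10 to 13.6 CPM in MKO livers, and Kupffer cell markers to 223 to 590 and 195 to 503 CPM. Their part in the member values was not tested.

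The macrophage comparison asked the same of cells in which Cre is active, after TSH. Of the 23 members tested (7 UGT, 1 SULT and 15 GST), 0 passed an adjusted p of 0.05 in edgeR, as did 0% of the 15372 genes tested. The lowest adjusted p of a member was 0.225 and that of any gene 0.218. At an unadjusted p under 0.05, Gstt2, Ugt1a9, Sult1a1 and Gsta4 were higher in MKO BMDM (17.4% of the members; 7.73% of all genes) and Ugt1a6b was lower (4.35%; 10.2% of all genes). DESeq2 called 2 of the 23 members at an adjusted p under 0.05, Gstt2 and Ugt1a6b (1223 of 15336 genes in all). The MARS model called 8 (2040 of 15372 genes in all). Fold changes were above 0 for 17 of 23 members (73.9%), against 50.8% of all genes. Their median log2 fold change was 0.24, and 0.01 over all genes. In 7 members all MKO libraries were above all f/f libraries (30.4%; 14.8% of all genes), and in 0 they were below (14% of all genes). Those 7 were Gstt2, Ugt1a9, Sult1a1, Gsta4, Gstt3, Gstk1 and Ugt1a2. To be tested, a gene needed enough counts in as many libraries as 1 group holds. Sult1a1, Ugt1a9 and Ugt1a2 met this through their MKO libraries alone. Ugt1a2 had 3, 10 and 0 counts in f/f and 11, 15 and 11 counts in MKO BMDM. Gsta4 did not meet it in f/f alone. For these members, being higher in MKO was partly a condition of being tested, and the same filter held for all genes.

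Gstt2, a theta-class transferase, had 4.14, 3.64 and 3.19 CPM in f/f and 6.42, 5.07 and 8.87 CPM in MKO BMDM. All MKO cultures were above all f/f cultures, with MKO replicate 3 the highest (log2 fold change 0.89, SE 0.27, unadjusted p = 0.0146, edgeR adjusted p = 0.225). Its DESeq2 adjusted p was 0.0391, within a range over the alternatives from 1.1e-33 in the MARS model to 0.587, and it stayed at an unadjusted p under 0.05 whichever of the 6 libraries was left out. Gstt3, its neighbour in the theta cluster, was at 2.64, 3.60 and 1.15 CPM in f/f and 4.23, 4.19 and 5.11 CPM in MKO BMDM, also without overlap (log2 fold change 0.86, SE 0.42, unadjusted p = 0.0806). Gsta4 was low, with 21, 9 and 10 counts in f/f and 30, 54 and 25 counts in MKO BMDM, or 0.527, 0.206 and 0.384 CPM against 0.783, 1.44 and 0.603 CPM (log2 fold change 1.33, SE 0.53, unadjusted p = 0.0438, edgeR adjusted p = 0.268). Gstk1, picked after its values were seen, was at 1.68, 1.95 and 0.614 CPM in f/f and 3.0, 2.48 and 2.31 CPM in MKO BMDM, with f/f replicate 3 far below the rest (log2 fold change 0.86, unadjusted p = 0.0971). Gsta3 had its highest values among the controls, with 1.81, 6.18 and 3.69 CPM in f/f and 2.35, 2.19 and 0.434 CPM in MKO BMDM, and the groups overlapped (log2 fold change -1.23, SE 0.71, unadjusted p = 0.130).

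**Figure D4:**
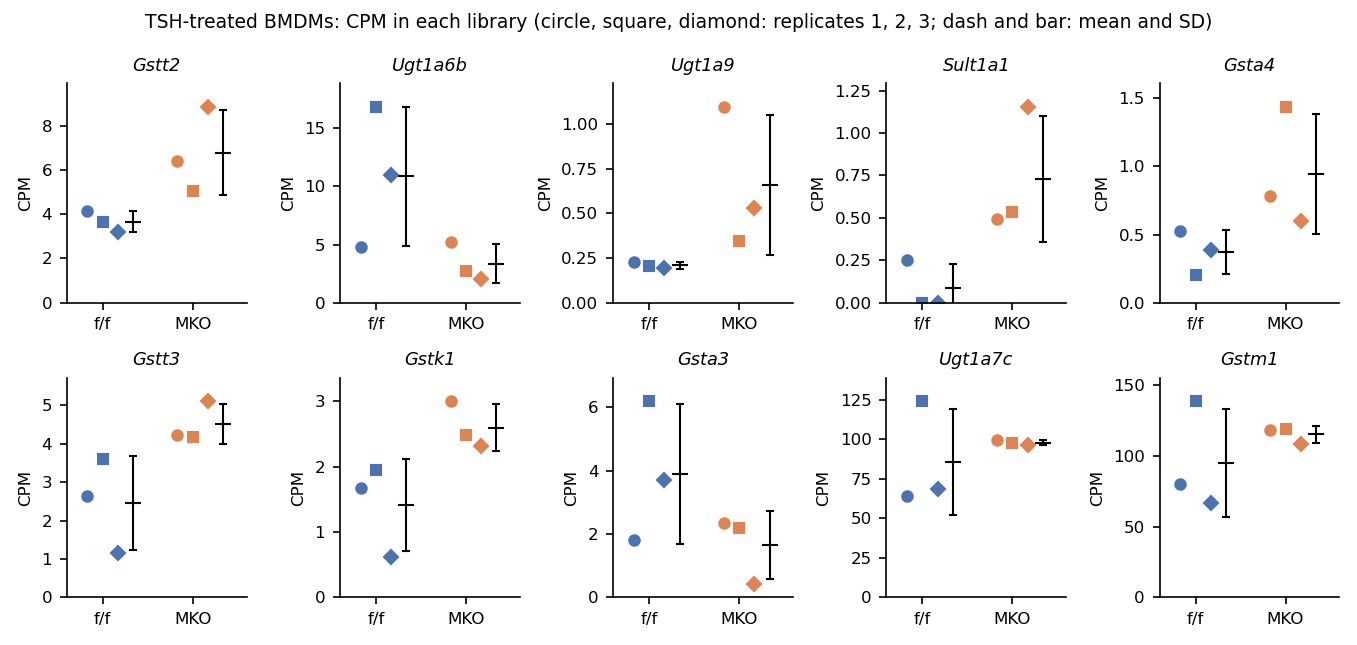
CPM of 10 members in each of the 6 BMDM libraries, drawn as for the livers, with each axis from 0 so that the lower SD bar of Sult1a1 is cut off. Ugt1a6b is the member whose f/f values (4.80 to 16.8 CPM) lie mostly above the MKO values (2.05 to 5.25 CPM), and for Ugt1a7c and Gstm1 the 3 MKO points lie close together inside the f/f range.

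The UGT1A genes of the macrophages differed from each other in direction. Ugt1a6b was at 4.80, 16.8 and 10.9 CPM in f/f and 5.25, 2.75 and 2.05 CPM in MKO BMDM, where MKO replicate 1 was above f/f replicate 1 (log2 fold change -1.70, SE 0.55, unadjusted p = 0.0201, edgeR adjusted p = 0.234). Its DESeq2 adjusted p was 0.0350, in a range over the alternatives from 1.5e-90 in the MARS model to 0.587. Without f/f replicate 2, MKO replicate 2 or MKO replicate 3, no member was lower at an unadjusted p under 0.05. Ugt1a6a, the closest relative of Ugt1a6b in the cluster, was at 12.2, 18.2 and 7.07 CPM in f/f and 15.4, 14.5 and 11.8 CPM in MKO BMDM (log2 fold change 0.15, SE 0.34). Ugt1a9 had 9, 9 and 5 counts in f/f and 42, 13 and 22 counts in MKO BMDM, or 0.226, 0.206 and 0.192 CPM against 1.10, 0.347 and 0.530 CPM, with no overlap (log2 fold change 1.64, SE 0.55, unadjusted p = 0.0218, edgeR adjusted p = 0.237). Ugt1a7c, which carried most of the UGT counts, was at 64.1, 124 and 68.7 CPM in f/f and 99.6, 97.5 and 96.3 CPM in MKO BMDM (log2 fold change 0.19, SE 0.27). Because these genes share their downstream exons, the split of reads between them is uncertain.

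Sult1a1 was the sole SULT gene with enough counts for a test in BMDM, and it had them through its MKO libraries alone. It had 10, 0 and 0 counts in f/f and 19, 20 and 48 counts in MKO BMDM, so that 2 control libraries were without a count and all MKO libraries were above the controls. In CPM these were 0.251, 0 and 0 against 0.496, 0.533 and 1.16 (fitted log2 fold change 3.0, SE 1.18, unadjusted p = 0.0419, edgeR adjusted p = 0.265). With 2 of the 3 controls at 0 this fitted value is loose: it ran from 2.37 to 7.78 when 1 library was left out, and its unadjusted p was under 0.05 in 1 of those 6 fits. Among the abundant members, Gstm1 was at 80.3, 138 and 66.5 CPM in f/f and 118, 119 and 108 CPM in MKO BMDM (log2 fold change 0.27, SE 0.28). Gsto1 was at 51.2, 84.4 and 46.0 CPM in f/f and 61.5, 57.9 and 57.6 CPM in MKO BMDM (log2 fold change -0.04, SE 0.24), with a sign that turned under other scalings. In both genes f/f replicate 2 was the highest and f/f replicate 3 the lowest of the 6. The summed levels were 231 ± 88.5 and 261 ± 8.59 CPM for GST and 111 ± 44.4 and 118 ± 5.29 CPM for UGT genes in f/f and MKO BMDM (SD, n = 3), with a wide spread among the controls.

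The control macrophages were uneven for the members. Over the 23 tested, f/f replicate 3 was the lowest library for 14 and f/f replicate 2 was the highest of the controls for 16. These ranks were not counted over all genes, so they are not shown to be particular to the members. The f/f replicate 3 library also had the lowest TMM factor (0.738). The sum of the 7 fibroblast markers was highest in f/f replicate 2. It was 1125, 2355 and 1053 CPM in f/f and 1107, 1314 and 721 CPM in MKO BMDM, with Lrat at 0 in all 6. Of the 7 markers, 3 were highest in f/f replicate 2, among them Col1a1 (389, 1116 and 365 CPM in f/f). A further 2 were highest in MKO replicate 2. Pdgfra was at 148, 136 and 108 CPM and Des at 27.3, 24.2 and 23.4 CPM in f/f. Their part in the member values was not tested. Once f/f replicate 2 was dropped, the members had a median of 0.60 on the log2 scale. Without f/f replicate 3 or MKO replicate 1 the members higher at an unadjusted p under 0.05 numbered 1 (3.7% and 3.85%; 7.85% and 3.55% of all genes), and without MKO replicate 2 they numbered 2 (8%; 4.35% of all genes), so that in the fit without f/f replicate 3 the members' share was below that of all genes. Scaling by library totals alone moved the median of all BMDM genes from 0.01 to 0.17, and that of the members from 0.24 to 0.36.

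The f/f replicate 3 culture was also the highest of all 6 for 17 of 25 tested targets of NRF2 outside the members, a factor that governs several GST genes as well. This rank, too, was not counted over all genes. Of these 25 targets, 12 were lower (10.2% of all genes) and 1 (Ephx1) was higher (7.73% of all genes) in MKO BMDM at an unadjusted p under 0.05. Their median log2 fold change was -0.63. The count of lower genes was 15, 12 and 11 without f/f replicates 1, 2 and 3, and 5, 4 and 6 without MKO replicates 1, 2 and 3. In the same fits 9.12%, 14.7%, 7.4%, 4.6%, 5.17% and 7.59% of all genes were lower. Calls over all genes thus also became fewer without an MKO library, but not without f/f replicate 2. Slc7a11, the cystine importer, was at 209, 360.2 and 2291 CPM in f/f and 24.0, 19.2 and 44.6 CPM in MKO BMDM, without overlap. Hmox1, heme oxygenase 1, was at 749.9, 1472 and 3591 CPM in f/f and 696, 549 and 407 CPM in MKO BMDM. Gclm, a subunit of the enzyme that starts glutathione synthesis, was at 105, 174 and 317 CPM in f/f and 94.4, 93.7 and 60.7 CPM in MKO BMDM. In all 3 genes f/f replicate 3 was the highest library, the same library that was lowest for most members, and its part in these values was not tested.

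Other supply genes were mixed. Of 16 genes of glutathione synthesis and recycling, Ggt5 and Oplah were higher and Gclm, Gsr, Ggct, Slc7a11 and Glrx lower at an unadjusted p under 0.05. Of 8 genes of UDP-glucuronic acid supply, Gusb was higher and Slc35a3 lower, and of 16 of sulfate and PAPS supply, Arsb, Tst and Csad were higher and Sqor lower. Among other conjugation enzymes, Hnmt, Ephx1, Gamt, Hpgds and Ltc4s were higher and Ptges, Eef1e1 and Clic4 lower. Of 7 carriers, Abcc1 and Abcc5, which export conjugates, were lower. Of 21 receptors and factors, Rxra, Rxrb and Cebpa were higher and Mafg, Maff and Cebpb lower. No gene of these lists passed an adjusted p of 0.05.

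The last comparison set the genotype difference in liver against that in BMDM, by the interaction of tissue and genotype over all 12 libraries. Of 47 members tested, 4 had an unadjusted p under 0.05 (8.51%; 14.5% of all genes) and 0 an adjusted p under 0.05 in edgeR (0.0058% of all genes). The 47 included members without a count in any BMDM library, such as Ugt2b1, Ugt2a3 and Sult2a8. Terms of such members had an SE of 11.8 (Ugt2b5) to 3287 (Gsta2), so they could not reach a low p. The share of the members and that of all genes are therefore not directly comparable. DESeq2 gave 7 at an unadjusted p under 0.05 and 1, Sult1a1, at an adjusted p under 0.05 (771 of 15541 genes in all). Without f/f BMDM replicate 1, edgeR called Sult1a1 too (62 of 17755 genes in all), when both remaining controls had no count of it. The lowest p was that of Sult1a1, with a difference of -2.95 on the log2 scale (SE 0.94, unadjusted p = 0.0098, edgeR adjusted p = 0.231), from 0.01 in liver and 3.0 in BMDM. Ugt1a6b followed with 1.72 (SE 0.57, unadjusted p = 0.0124, edgeR adjusted p = 0.237), from 0.02 in liver and -1.70 in BMDM. Gsto2, another omega-class gene, also had an unadjusted p under 0.05, but its counts were 0, 0 and 0 in f/f and 0, 3 and 4 in MKO livers, so its fitted value is no estimate of size. Ugt1a9 was above 0 in both tissues, 0.54 in liver and 1.64 in BMDM. Of the 21 members tested in both tissues, 13 were above 0 in both, 4 were above 0 in liver only, 4 in BMDM only and 0 below 0 in both. Most members tested were above 0 in each tissue by itself (80% in liver, 73.9% in BMDM). The same count was not made over all genes, so these numbers are no measure of agreement between the tissues. Gsta4 was at 0.79 in liver and 1.33 in BMDM, and Gstk1 at 0.38 and 0.86.

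**Figure D5:**
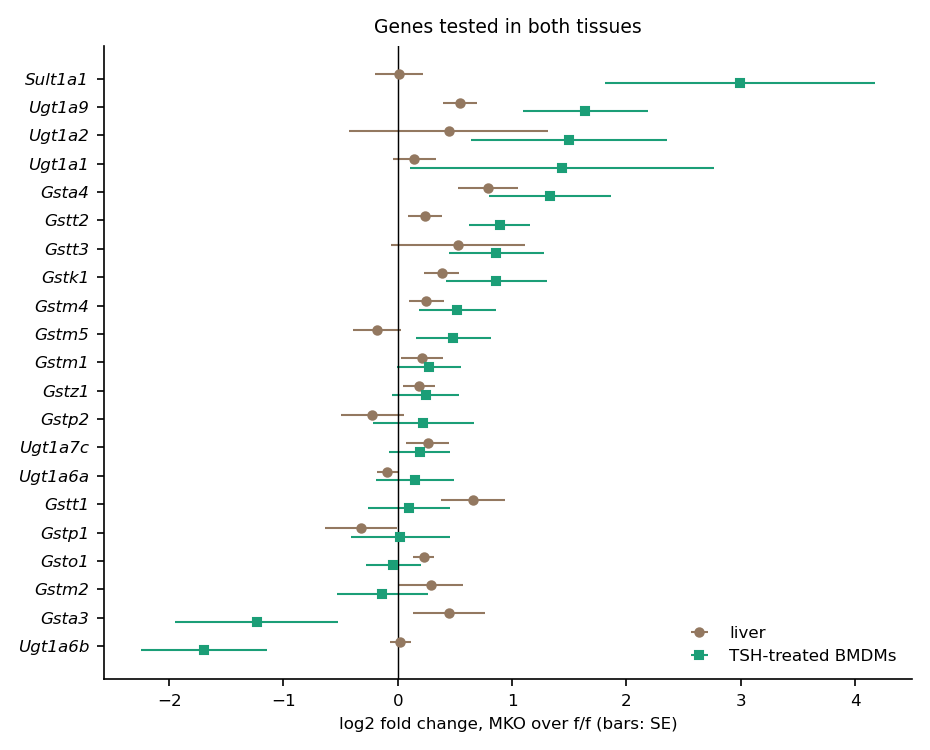
Log2 fold change (MKO against f/f) on the x axis, with bars of 1 SE, for the 21 members tested in both tissues, 1 line per gene, with brown circles for liver and green squares for BMDM. Gsta4, Gstk1 and Ugt1a9 lie above 0 in both tissues, Ugt1a6b at 0.02 in liver and -1.70 in BMDM, and Sult1a1 at 0.01 in liver and 3.0 in BMDM.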

How the data were processed

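Per the submitters' processing notes, the libraries were handled with FastQC 0.11.2, STAR and StringTie on mm10. The counting program is not given in the sources used here. The authors deposited raw counts per gene, and all values were computed from these deposited counts. Library totals were 28962878 to 40954211, and 3 counts corresponded to 0.0733 to 0.104 CPM. Each tissue was fitted alone in edgeR 4.0.16 (R 4.3.3) with TMM factors, filterByExpr, a robust quasi-likelihood fit and Benjamini-Hochberg adjustment over all genes tested, and a further fit over all 12 libraries gave the interaction. SE is the absolute log2 fold change over the square root of F. Levels between genes were compared per kilobase of merged exons (GENCODE M21). The study's methods give 3 mice per group in each tissue, and the labels do not tie single libraries to mice or litters. No 2 libraries of a group agreed within sampling noise. Alternatives were other scalings, filters, fits and each library left out, DESeq2 1.42.0 and the MARS model (counts of 0 set to 0.5, fold change at least 2). Counts over gene lists with each library left out were added after seeing the data. Members named in the text were those with the 2 highest levels of each family in each tissue, those at an unadjusted p under 0.05, those with the 2 largest rises and falls at a mean of at least 50 counts, and the 3 with the lowest interaction p, with others said to be picked later. Not every gene of the lists is reported here. Members and lists were chosen with earlier results of these data known. The fits were tested on simulated data.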

Additional observations from a re-analysis of the deposited data

Results flagged for a closer look

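In 4 members the genotype difference in liver and that in BMDM differed by the interaction term at an unadjusted p under 0.05, and in none at an adjusted p under 0.05 in edgeR. DESeq2 gave 7 and 1 (Sult1a1), and edgeR without f/f BMDM replicate 1 gave 5 and 1 (Sult1a1). Over all genes, adjusted calls in these fits numbered 771 of 15541 and 62 of 17755. Values are liver minus BMDM on the log2 scale. The term was -2.95 for Sult1a1 (edgeR adjusted p = 0.231), where the 3 MKO BMDM libraries were above the controls and the livers overlapped. It was 1.72 for Ugt1a6b (edgeR adjusted p = 0.237), whose BMDM values were lower in 2 of 3 MKO libraries than in any control. For Gsto2 it was 4.97 (edgeR adjusted p = 0.320), resting on 7 liver counts in all. For Ugt1a9 it was -1.08 (edgeR adjusted p = 0.344), with all MKO libraries above all f/f libraries in both tissues.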

How the results depend on the processing

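The alternatives below moved a count past 1.5 times or turned a sign, and the cause was not tested. DESeq2 gave 1 liver and 2 BMDM members at an adjusted p under 0.05 and 7 at an unadjusted and 1 at an adjusted p in the interaction. The MARS model gave 2 higher and 2 adjusted members in liver, and 2 lower and 8 adjusted in BMDM. A mean of at least 50 counts left 1 higher BMDM member. The labels do not pair the replicate numbers, and same-numbered libraries correlated at -0.07, 0.26 and -0.04 in liver and 0.17, 0.03 and 0.11 in BMDM. With 3 libraries per group these values can neither show nor exclude a pairing. With the replicate block, 7 liver members were higher and 0 lower, and in BMDM 2 were higher and 0 lower. Leaving out each library gave 5 to 14 higher members in liver, 1 to 6 higher and 0 to 1 lower in BMDM, a BMDM median of 0.0779 to 0.60, and 2 to 5 interaction members, with 2 without f/f or MKO liver replicate 3. Over all genes, adjusted calls numbered 269 (DESeq2), 514 (MARS) and 0 to 7 (each library left out) in liver, and 1223, 2040 and 0 to 13 in BMDM, where 1 fit of all 12 libraries gave 150 and the block 1. Signs turned for members near 0 and for some further from it. With libraries left out, BMDM Ugt1a1 (1.44 in the main fit) fell as low as -0.73. Liver Gstt3 (0.52) fell as low as -0.02 and liver Ugt1a2 (0.44) as low as -0.25. Liver Ugt2b5 was 0.00100 with library totals, 0.0073 with MARS and -0.11 to 0.11 with libraries left out, Sult1a1 -0.17 to 0.15 and Ugt1a6b -0.0248 to 0.0623. BMDM Gsto1 was 0.0213 with upper-quartile factors, 0.0837 with totals, 0.0160 with the block, 0.0586 with MARS and -0.20 to 0.28 with libraries left out, Gsto2 0.0193 with the block and -0.46 to 0.31, and Ugt1a6a -0.13 to 0.52.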

Other observations

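Among genes left out of the members by name, the pseudogene Gstm2-ps1 had 14, 15 and 13 counts in f/f and 35, 25 and 10 counts in MKO livers. Sult3a1 was too low to be tested, with 0, 0 and 0 counts in f/f and 18, 0 and 8 counts in MKO livers. Gstt4, counted in BMDM only, had 2, 0 and 11 counts in f/f and 7, 0 and 2 counts in MKO BMDM.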
